A study of Sus scrofa with 6 samples.

Results

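A set of 10 genes tied to heat production in fat was followed in the subcutaneous fat of pigs, an animal that lacks working UCP1, the uncoupling protein of brown fat. They are the uncoupling protein genes UCP2 and UCP3, the creatine genes GATM, SLC6A8 and CKB, the calcium pump genes ATP2A1 and ATP2A2, the regulators DIO2 and PRDM16, and the marker TMEM26. They were chosen by symbol, and all 10 matched a row among the 22844 rows of the deposited library tables. UCP1 itself matched no row by symbol, so it was not analysed here. The study compared 3 libraries from pigs whose feed held 400 mg/kg of resveratrol, a polyphenol found in plants, with 3 libraries from pigs on the control diet. All animals were crosses of the Duroc, Landrace and Yorkshire breeds, and total RNA of whole fat was sequenced. The labels give no ages. They also do not tie each library to its own animal, so the p-values below reflect only how these libraries vary, which may be technical.

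Brown and beige fat burn fuel without storing the energy. UCP1 does so by letting protons leak across the inner mitochondrial membrane, and UCP2 and UCP3 are related carriers of that membrane whose transport roles are still debated. Other routes waste energy by running a reaction in a circle. In the creatine cycle phosphate is moved onto creatine and released again, and in the calcium cycle the pumps SERCA1 and SERCA2 load calcium into the endoplasmic reticulum while it leaks back.

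Depth ran from 34436239 to 37943877 reads in the resveratrol libraries and from 16251536 to 34048559 reads in the control libraries, with control 2 the shallowest. The adipocyte marker list was detected in full (10 of 10 genes), and ADIPOQ, the hormone of fat cells, stood between 4437 and 4683 TPM in resveratrol and between 3614 and 4042 TPM in control. TPM is the authors' abundance value, scaled for transcript length and library total. Control 1 stood apart in tendon and cartilage genes, whose summed level was 17.7 to 32.2 TPM in resveratrol and 30.9 to 341 TPM in control. The log2 fold change was below 0 in 7 of 7 of these genes. Of these, 4 had an unadjusted p under 0.05 in edgeR, and 0 passed after adjustment. Among all tested rows, 4.32% had an unadjusted p under 0.05 in this direction. Macrophage markers were higher in resveratrol in 10 of 10 genes, 6 of them at an unadjusted p under 0.05 in edgeR (2.21% of all tested rows were so in this direction) and 0 after adjustment, with a summed level of 735 to 1110 TPM against 588 to 692 TPM in control. In whole tissue, fewer cells of a type and less RNA per cell cannot be told apart.

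No change in the thermogenic genes passed the test. Reads were tested with edgeR's quasi-likelihood test over the 14908 rows whose mean reached 0.5 TPM, with Benjamini-Hochberg adjustment over all of them. Of the 10 genes, 8 passed this filter on low values, and ATP2A1 and PRDM16 lay below it. None of the 8 was called at an adjusted p under 0.05, where 0.0% of all tested rows were, and none had an unadjusted p under 0.05, where 6.53% of all tested rows did. DESeq2, run as an alternative, called 0 of the 8 after adjustment and 0.268% of all rows. The log2 fold change was above 0 in 4 of the 8 genes and below 0 in 4, and above 0 in 48.8% of all rows. Its median was 0.05 over the 8 genes and -0.0075 over all rows. In all 8 genes the TPM values of the diets overlapped, while 12.3% of all tested rows did not overlap.

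**Figure D1:**
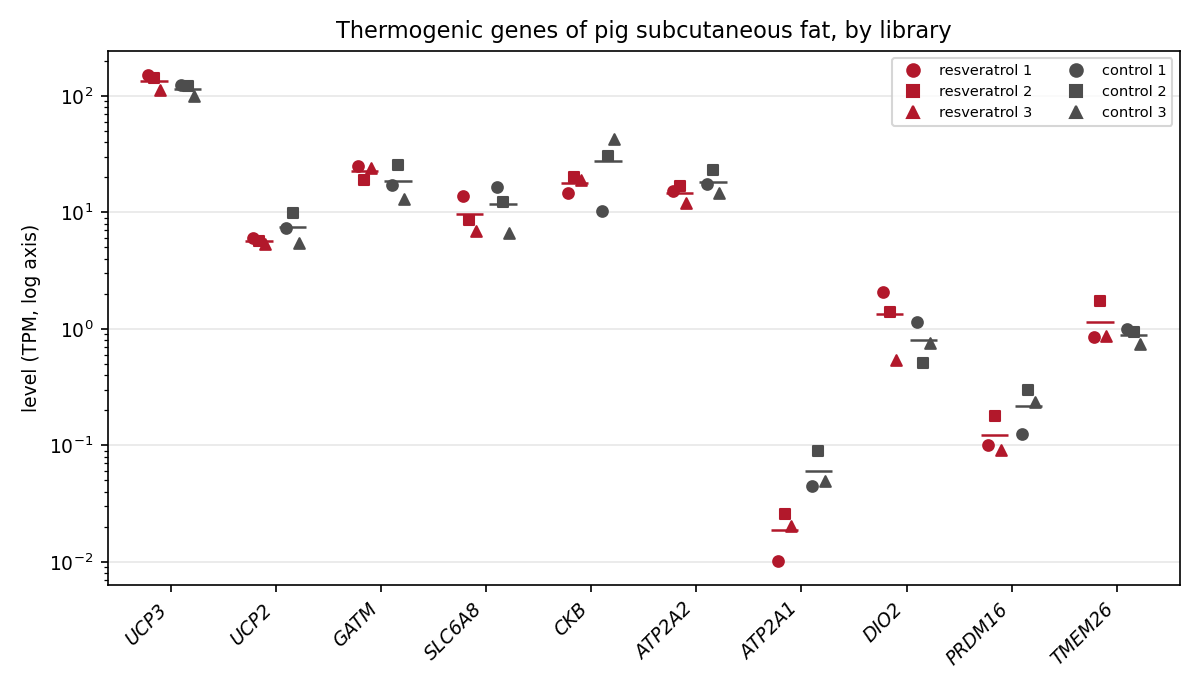
Level of each gene in TPM on a log axis, with 1 point per library (resveratrol in red, control in grey) and the mean of each diet as a line. UCP3 stands at 99.96 to 150.8 TPM, above every other gene shown in every library, and ATP2A1 at under 0.1 TPM.

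The genes differed far more from each other than between diets. UCP3 averaged 125.4 TPM over the 6 libraries, more than 94.3% of all tested rows. CKB, GATM, ATP2A2 and SLC6A8 had means of 22.8, 20.6, 16.5 and 10.8 TPM, and their ranges over libraries overlapped, so that their order is not resolved. UCP2 (6.60 TPM) overlapped SLC6A8 in range. DIO2 and TMEM26 averaged 1.07 and 1.02 TPM and overlapped as well, and they exceeded 9.05% and 8.32% of tested rows. PRDM16 averaged 0.172 TPM, and ATP2A1 0.0398 TPM. Summed over the 10 genes the level was 228.3, 216.7 and 180.4 TPM in resveratrol 1, 2 and 3, against 196.2, 224.7 and 183.6 TPM in control 1, 2 and 3. UCP3 supplied 64.7 ± 2.36% of that sum in resveratrol and 57.4 ± 5.44% in control (SD, n = 3 each).

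UCP3, the carrier known in mammals mainly from skeletal muscle and brown fat, was the leading uncoupling protein transcript among those with a row. It measured 150.8, 143.1 and 111.8 TPM in resveratrol 1, 2 and 3, against 125.0, 121.6 and 99.96 TPM in control 1, 2 and 3. The lowest resveratrol library lay among the control libraries, and 7 of the 9 pairs of a resveratrol and a control library had the higher value in resveratrol. Its log2 fold change was 0.30 (SE 0.17, edgeR adjusted p = 0.734), a fold of 1.23 with a 95% interval of 0.942 to 1.61. The skeletal muscle genes that matched a row were low in the same libraries. Of 28 listed muscle markers 20 matched, and MYH1, MYH2, MYH4, MYH7, MYLPF, MB, TTN and RYR1 had no row. The 20 matched markers summed to 5.67 to 11.1 TPM in resveratrol and 7.52 to 8.31 TPM in control. MYOD1, the master regulator of muscle fate, had no read in any library. CKM, the muscle creatine kinase, averaged 0.467 ± 0.221 TPM in resveratrol and 0.338 ± 0.235 TPM in control. The part of muscle in the UCP3 level was not tested.

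UCP2, a carrier found in many tissues and in immune cells, was far lower. It measured 6.01, 5.67 and 5.30 TPM in resveratrol 1, 2 and 3, against 7.33, 9.82 and 5.47 TPM in control 1, 2 and 3. Control 2 held the highest value and control 3 lay inside the range of the resveratrol libraries. The log2 fold change was -0.31 (SE 0.21, edgeR adjusted p = 0.750), a fold of 0.808 with a 95% interval of 0.586 to 1.11. Macrophage markers stood higher in resveratrol, as given above, while this point estimate lay below 0. Their part in the UCP2 level was not tested.

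The ratio of both carriers, looked at after their values were seen and given without a test, was 25.1, 25.3 and 21.1 in resveratrol 1, 2 and 3, against 17.1, 12.4 and 18.3 in control 1, 2 and 3 (UCP3 over UCP2 TPM). Every resveratrol library lay above every control library. Of single tested rows, 12.3% did not overlap between the diets in TPM, and no such share was computed for ratios of gene pairs. The genes drew nearly the same number of reads per TPM, 1.25 to 1.38 in resveratrol and 1.18 to 1.24 in control for each after scaling to the library total, so the ratio is almost the same in raw reads. UCP3 had 7151, 6762 and 5288 reads in resveratrol and 4876, 2325 and 4015 reads in control, and UCP2 had 285, 268 and 251 reads in resveratrol and 286, 188 and 220 reads in control. Both genes are close paralogs, and a single uncharacterised locus lies between them in the RefSeq gene order of the Sscrofa11.1 assembly. How the authors assigned reads shared by paralogs is not given in the sources used here. Of the other mitochondrial carriers, 5 of 8 listed were tested. Of these, 4 had a log2 fold change above 0, the median was 0.17, and 0 had an unadjusted p under 0.05. SLC25A4, an ADP/ATP carrier that can also leak protons, averaged 115.5 ± 34.0 TPM in resveratrol and 88.0 ± 12.9 TPM in control, with a log2 fold change of 0.46 (SE 0.23, edgeR adjusted p = 0.733).

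**Figure D2:**
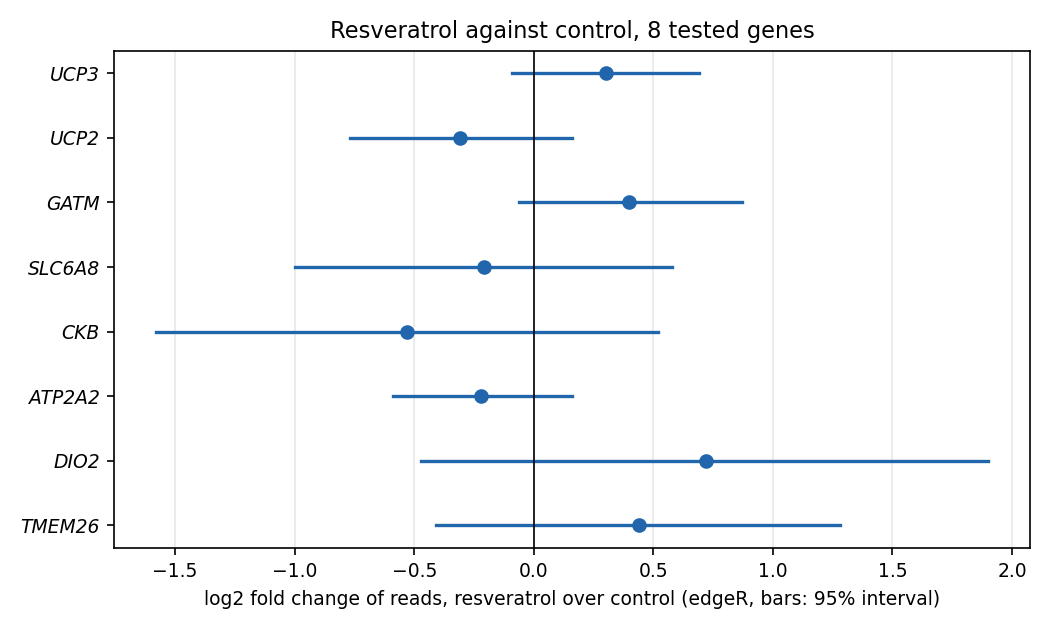
Log2 fold change of reads, resveratrol over control, for the 8 tested genes (points) with its 95% interval from edgeR (bars). Every interval crosses 0, and the intervals are narrowest for UCP3 and ATP2A2 and widest for DIO2 and CKB.

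The creatine genes covered synthesis, uptake and phosphorylation, and none passed the test. GATM makes guanidinoacetate, the precursor of creatine. It measured 24.8, 19.1 and 23.9 TPM in resveratrol 1, 2 and 3, against 17.2, 25.6 and 12.9 TPM in control 1, 2 and 3. Control 2 was the highest library of all, and the other control libraries lay below all resveratrol libraries. The log2 fold change was 0.40 (SE 0.21, edgeR adjusted p = 0.733), a fold of 1.32 with a 95% interval of 0.959 to 1.82. Without control 2 it was 0.58 (unadjusted p = 0.0153, adjusted p = 0.475 in edgeR). Without control 3 it was 0.24. GAMT, the enzyme that turns this precursor into creatine, had a log2 fold change of 0.43 (SE 0.22, edgeR adjusted p = 0.733), with 38.3 ± 6.95 TPM in resveratrol and 29.6 ± 7.57 TPM in control (SD, n = 3 each).

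SLC6A8, the creatine transporter of the cell surface, measured 13.7, 8.53 and 6.85 TPM in resveratrol 1, 2 and 3, against 16.6, 12.3 and 6.60 TPM in control 1, 2 and 3. The spread inside each diet, 2.0-fold in resveratrol and 2.52-fold in control, exceeded the difference between the diets. Its log2 fold change was -0.21 (SE 0.35, edgeR adjusted p = 0.900). The sign turned without control 1, to 0.20. SLC6A6, the taurine transporter of the same family, averaged 10.4 ± 1.75 TPM in resveratrol and 8.78 ± 1.92 TPM in control, with a log2 fold change of 0.36 (SE 0.19, edgeR adjusted p = 0.733).

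CKB, the cytosolic creatine kinase that is also placed at mitochondria in mouse thermogenic fat, had the widest spread among the well expressed genes. It measured 14.8, 20.1 and 19.1 TPM in resveratrol 1, 2 and 3, against 10.2, 30.6 and 42.3 TPM in control 1, 2 and 3. The control libraries thus held both the lowest and the highest value, 4.17-fold apart, with all resveratrol libraries between them. The log2 fold change was -0.53 (SE 0.45, edgeR adjusted p = 0.783), a fold of 0.693 with a 95% interval of 0.335 to 1.44. Single control libraries decided it: without control 1 it was -0.91 (unadjusted p = 0.00393, adjusted p = 0.698 in edgeR), and without control 3 it was 0.03. Control 1 is also the library with the highest tendon and cartilage genes. Control 3, the highest in CKB, was raised in some of them and not in others. In control 3 COMP measured 10.4 TPM, against 0.375 to 2.39 TPM in resveratrol, and MKX 3.74 TPM, against 1.75 to 3.86 TPM. The part of these genes in the CKB level was not tested.

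A pair of further creatine genes was sparse. The mitochondrial creatine kinase CKMT2 averaged 0.318 ± 0.0681 TPM in resveratrol and 0.417 ± 0.166 TPM in control, and ALPL, a phosphatase that splits phosphocreatine in mouse brown fat, averaged 0.128 ± 0.0389 TPM in resveratrol and 0.321 ± 0.157 TPM in control. Both lay below the filter and were not tested. Of 9 other creatine genes listed, 6 matched and 3 were tested. All 3 had a log2 fold change above 0, with a median of 0.36, and 0 passed after adjustment. Summed over GATM, SLC6A8 and CKB the level was 53.2, 47.7 and 49.8 TPM in resveratrol 1, 2 and 3, against 44.0, 68.5 and 61.9 TPM in control 1, 2 and 3.

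**Figure D3:**
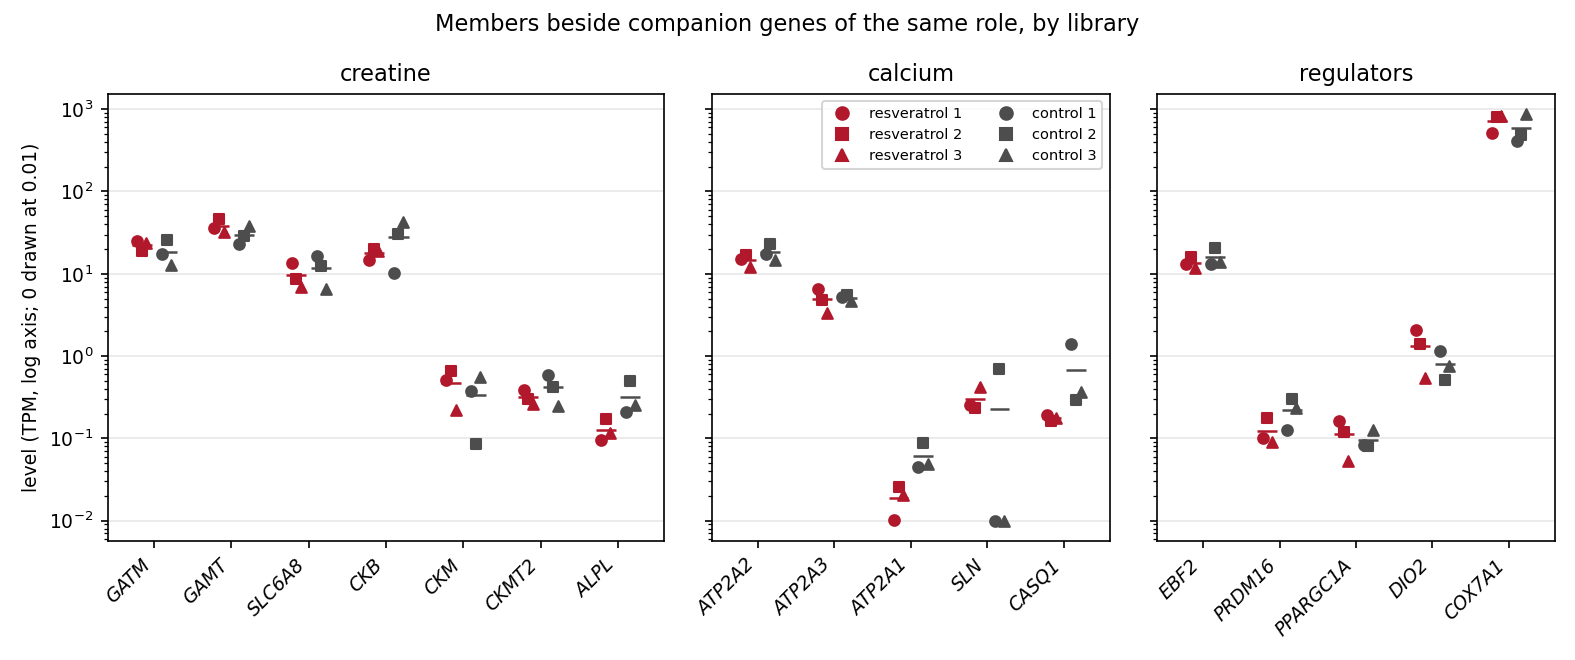
Level in TPM on a log axis for the creatine genes (left), the calcium genes (middle) and regulators with the mitochondrial subunit gene COX7A1 (right), with 1 point per library, resveratrol left of control, and the mean of each diet as a line. GATM, GAMT, SLC6A8 and CKB stand between 6.60 and 46.0 TPM in every library, while CKM, CKMT2 and ALPL stand below 0.7 TPM.

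Of the calcium pump genes ATP2A2 and ATP2A1, the first carried nearly all of their joint level. ATP2A2 encodes SERCA2, the pump of heart, smooth muscle and most other tissues. It measured 15.2, 16.9 and 12.0 TPM in resveratrol 1, 2 and 3, against 17.6, 22.9 and 14.6 TPM in control 1, 2 and 3. The ranges overlapped, with the highest value in control 2 and the lowest in resveratrol 3. Its log2 fold change was -0.22 (SE 0.17, edgeR adjusted p = 0.767), a fold of 0.861 with a 95% interval of 0.662 to 1.12. ATP2A3, the SERCA3 pump gene, named after its value was seen, averaged 4.87 ± 1.62 TPM in resveratrol and 5.13 ± 0.429 TPM in control. ATP2A2 stood 2.33 to 3.64 times above it in resveratrol and 3.12 to 4.17 times above it in control.

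ATP2A1 encodes SERCA1, the pump of fast skeletal muscle. It had 0, 4 and 2 reads in resveratrol 1, 2 and 3, against 6 reads in each of the 3 control libraries. As CPM, reads scaled to the library total, this was 0.0561 in resveratrol (exact Poisson 95% interval 0.0206 to 0.122) and 0.220 in control (0.130 to 0.348), and these intervals cover counting error only. Its TPM did not overlap between the diets, at 0.0102 to 0.0258 in resveratrol and 0.0444 to 0.0889 in control. Among rows that passed the filter, 12.3% did not overlap and 8.15% lay lower in every resveratrol library. These shares were not computed for rows below the filter, so they give no measure for ATP2A1. In a fit with no filter on low values, over 19984 rows, its log2 fold change was -2.04 (SE 1.02, edgeR adjusted p = 0.805). The skeletal muscle markers, whose sums are given above, had 5 tested genes, 3 with a log2 fold change above 0 and 2 below, and a median of 0.33. The rest of the 20 matched markers lay below the filter, as ATP2A1 did, and went in both directions. CASQ1 averaged 0.178 TPM in resveratrol and 0.684 TPM in control, and ACTA1 0.0547 and 0.381 TPM. NEB averaged 0.508 TPM in resveratrol and 0.323 TPM in control, and CKM 0.467 and 0.338 TPM. Their part in the ATP2A1 reads was not tested.

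The companion calcium cycling genes gave 12 tested of 20 listed, 4 with a log2 fold change above 0 and 8 below, with a median of -0.20. Of these, 1 in the upward and 3 in the downward direction had an unadjusted p under 0.05, and 0 passed after adjustment. Over all rows 2.21% had such a p in the upward direction and 4.32% in the downward one. SARAF, a brake on store-operated calcium entry, averaged 71.5 ± 2.92 TPM in resveratrol and 59.0 ± 3.94 TPM in control, with a log2 fold change of 0.36 (SE 0.16, edgeR adjusted p = 0.733). ITPR3, a calcium release channel of the endoplasmic reticulum, averaged 1.31 ± 0.226 TPM in resveratrol and 1.93 ± 0.32 TPM in control, with a log2 fold change of -0.48 (SE 0.19). ATP2B4, a pump of the cell surface, had a log2 fold change of -0.50 (SE 0.22). MCU, the pore of mitochondrial calcium uptake, averaged 5.63 ± 0.596 TPM in resveratrol and 8.04 ± 0.972 TPM in control, with a log2 fold change of -0.40 (SE 0.18). SLN, which encodes a peptide that uncouples SERCA from pumping in muscle, had 1, 1 and 2 reads in resveratrol 1, 2 and 3, against 0, 1 and 0 reads in control 1, 2 and 3.

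The regulators were low, and none passed the test. DIO2, the enzyme that activates thyroid hormone inside brown fat cells, measured 2.07, 1.39 and 0.539 TPM in resveratrol 1, 2 and 3, against 1.15, 0.508 and 0.753 TPM in control 1, 2 and 3. The highest values were in resveratrol 1 and resveratrol 2, and resveratrol 3 lay among the control libraries. These levels rest on 81, 54 and 21 reads in resveratrol and 37, 8 and 25 reads in control. In edgeR its log2 fold change was 0.72 (SE 0.53, edgeR adjusted p = 0.758), a fold of 1.64 with a 95% interval of 0.723 to 3.73. Leaving out resveratrol 1 gave 0.27, control 2 gave 0.45, resveratrol 3 gave 1.08 and control 1 gave 1.11.

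PRDM16, the transcription factor that sets brown and beige identity in mice, had 23, 41 and 22 reads in resveratrol 1, 2 and 3, against 23, 29 and 45 reads in control 1, 2 and 3. Its level was 0.101, 0.177 and 0.0914 TPM in resveratrol and 0.125, 0.298 and 0.236 TPM in control, with overlapping ranges. With no filter its log2 fold change was -0.69 (SE 0.46, edgeR adjusted p = 0.805). TMEM26, a surface protein used as a marker of beige cells in mice, measured 0.845, 1.75 and 0.862 TPM in resveratrol 1, 2 and 3, against 0.991, 0.944 and 0.745 TPM in control 1, 2 and 3. These TMEM26 levels rest on 51, 105 and 52 reads in resveratrol and 49, 23 and 38 reads in control. Resveratrol 2 stood above all other libraries, which lay close together. This gave a log2 fold change of 0.44 (SE 0.38, edgeR adjusted p = 0.786), and without resveratrol 2 it was 0.04.

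Genes around these regulators gave 24 tested of 35 listed, 9 with a log2 fold change above 0 and 15 below, with a median of -0.03. A single gene had an unadjusted p under 0.05. That gene, ZNF423, a factor that holds white fat cells in their white state in mice, averaged 7.0 ± 1.03 TPM in resveratrol and 10.6 ± 0.706 TPM in control. Its log2 fold change was -0.49 (SE 0.15, edgeR adjusted p = 0.733), and every resveratrol library lay below every control library, as in 8.15% of all rows. ESRRA, a nuclear receptor of mitochondrial genes, and ADRB1, a beta-adrenergic receptor, gave log2 values of 0.44 (SE 0.21) and 0.54 (SE 0.28) for the fold change. BMP7, a signal that favours brown fat, had one of 1.10 (SE 0.57), with 1.01 ± 0.396 TPM in resveratrol and 0.471 ± 0.355 TPM in control. It rests on 53 to 108 reads in resveratrol and 5 to 52 reads in control, and was 1.89 without control 1, 0.68 without resveratrol 3 and 0.72 without control 2. For ADRB1 the value was 0.33 without control 1 and 1.02 without control 3.

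Some genes tied to brown fat in mice were well expressed and others were not, with no brown fat library for comparison. EBF2, a factor that marks brown and beige precursors in mice, averaged 13.6 ± 2.09 TPM in resveratrol and 15.8 ± 3.94 TPM in control. COX7A1, a cytochrome oxidase subunit gene used as a brown fat marker in mice, averaged 714 ± 175 TPM in resveratrol and 590.4 ± 252 TPM in control. PPARGC1A, the coactivator of mitochondrial biogenesis, averaged 0.112 ± 0.0560 TPM in resveratrol and 0.0967 ± 0.0262 TPM in control, below the filter. ELOVL3, an elongase of brown fat named after its value was seen, had no read in any library. The beige and brown marker list had 13 of 18 genes tested, 10 above 0 and 3 below, with a median log2 fold change of 0.10. In it EBF3, a relative of EBF2, had a log2 fold change of -0.46 (SE 0.15, edgeR adjusted p = 0.733) and P2RX5, an ATP-gated channel, one of -0.73 (SE 0.36), which was -1.36 without resveratrol 1 and -0.46 without resveratrol 3.

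A further pair of lists covers fuel cycling and mitochondria. In the glycerolipid list, which holds genes that build and break down triglyceride, 10 of 12 genes were tested, 8 above 0 and 2 below, with a median of 0.26. Of these, 2 in the upward and 1 in the downward direction had an unadjusted p under 0.05, and 0 passed after adjustment. GPD1, which makes the glycerol phosphate backbone, averaged 529.5 ± 100.5 TPM in resveratrol and 388 ± 10.3 TPM in control, with a log2 fold change of 0.53 (SE 0.21, edgeR adjusted p = 0.733). PCK2, the mitochondrial PEP carboxykinase, averaged 5.10 ± 0.554 TPM in resveratrol and 3.68 ± 0.883 TPM in control. GPAM, the acyltransferase of the first step of triglyceride synthesis, averaged 4.91 ± 0.153 TPM in resveratrol and 6.89 ± 1.65 TPM in control. In the list of mitochondrial content 10 of 12 were tested, 8 above 0 and 2 below, with a median of 0.10 and 0 at an unadjusted p under 0.05. VDAC1, the outer membrane channel, had the smallest p of them, with a log2 fold change of -0.31 (SE 0.22), which was -0.50 without control 1 and -0.10 without control 3. Over all 7 lists, 9 of 76 tested rows had an unadjusted p under 0.05 in edgeR (11.8%), against 6.53% of all rows. The lists were chosen with earlier results of these data known, so these shares are no test of the lists. Without resveratrol 3 the 9 became 1.

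**Figure D4:**
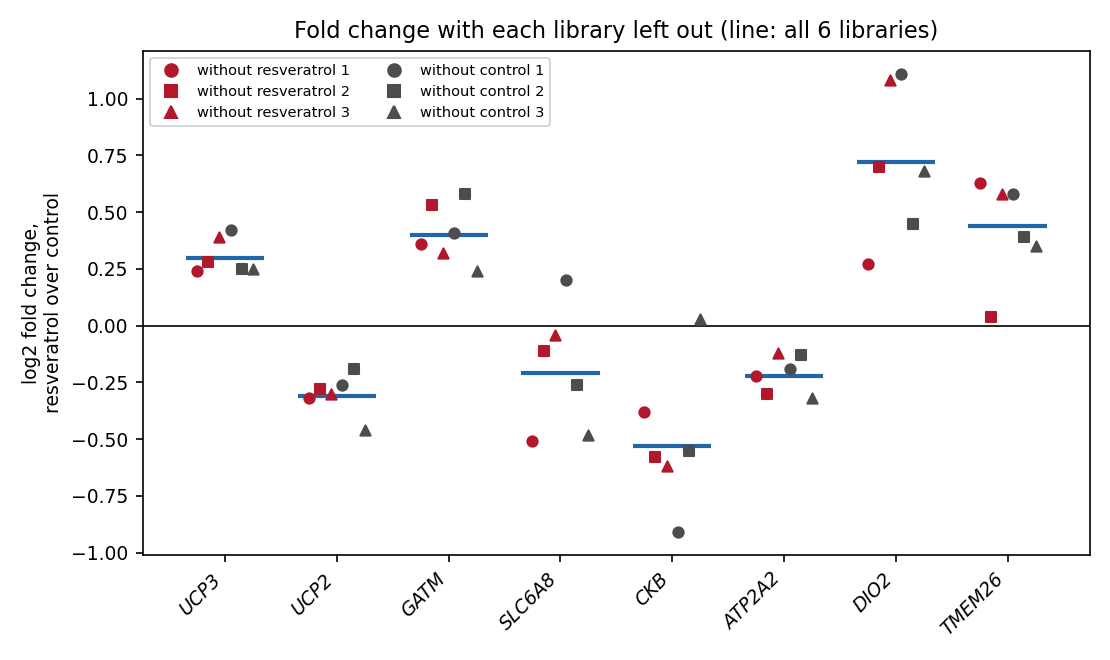
Log2 fold change of reads, resveratrol over control, for the 8 tested genes with each library left out in turn (points) and with all 6 libraries (line). CKB spans -0.91 to 0.03 and SLC6A8 -0.51 to 0.20, while UCP3 stays between 0.24 and 0.42 and UCP2 between -0.46 and -0.19.

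The 8 tested genes varied to different degrees inside a diet. The pooled SD of log2 CPM within a diet was 0.17 for UCP3, 0.18 for ATP2A2 and 0.21 for UCP2, larger than in 22.7%, 25.4% and 32.5% of all tested rows. It was 0.78 for DIO2, 0.76 for CKB and 0.57 for SLC6A8, larger than in 95%, 94.5% and 87.9% of rows. GATM and TMEM26 lay between, at 0.31 and 0.41. With each library left out in turn, the fold changes of UCP3, UCP2, GATM, ATP2A2, DIO2 and TMEM26 kept their sign, and those of CKB and SLC6A8 did not.

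The genes whose profile over the 6 libraries lay nearest were found among 10682 rows that had a symbol and a mean of 1 TPM or more. The distance was the root mean square difference of centred log2 CPM. PECR, a peroxisomal enoyl-CoA reductase, and ALDH4A1, an enzyme of proline breakdown, were nearest to CKB (0.12 and 0.183, where the root mean square deviation of CKB itself was 0.640). OSTC and HSP90B1, an oligosaccharyltransferase subunit and a chaperone of the endoplasmic reticulum, were nearest to GATM (0.054 and 0.063, own 0.326). TMEM138 was nearest to UCP3 (0.050, own 0.209), and PCBP2 and CEP128 to UCP2 (0.027 and 0.029, own 0.223). GPSM3 and GNA15 were nearest to SLC6A8 (0.127 and 0.150, own 0.474), and EIF1AD and NFIB to ATP2A2 (0.035 and 0.036, own 0.185). SPC24 and ORAI3 were nearest to DIO2 (0.243 and 0.269, own 0.715), and KLHL25 and SNCG to TMEM26 (0.117 and 0.135, own 0.381).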

How the data were processed

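The authors deposited, per the file headers, a table for each library with whole-number read counts and TPM for 22844 rows, of which 22452 carry pig Ensembl identifiers. Their series table of TPM holds the same values for 14777 rows. The mouse builds mm9 and mm8, and version 0.12.2 of Bowtie, are named per the submitters' processing notes. The pig build, the counter and its strand setting are unknown from these notes, so no coordinates are printed and reads of overlapping or antisense genes cannot be told apart. Symbols came from a table of gene identifiers, and 14750 rows matched. Counts were scaled by TMM and tested with edgeR 4.0.16 (robust quasi-likelihood) in R 4.3.3, with Benjamini-Hochberg adjustment over the 14908 rows whose mean reached 0.5 TPM and a threshold of 0.05. The SE is the log2 fold change divided by the square root of F. Fold changes are resveratrol over control. Groups came from the sample titles. Alternatives were DESeq2 1.42.0, limma 3.58.1 on log2 TPM with pseudocounts of 0.5, 1 and 0.1, other scalings and filters, a replicate block, and each library left out. The scripts were tested on simulated data. TPM also depends on an assembled locus that took 16.6% to 25.8% of each library's TPM, and limma with a pseudocount of 0.5 gave all rows a median log2 fold change of -0.0792. The genes, the 7 companion lists and the 9 marker lists were chosen with earlier results of these data known. All 10 genes are named. From each companion list up to 6 genes, in order of unadjusted p, and those that define its role are named. Of the role-defining genes, PLN, RYR1 and CIDEA matched no row by symbol. Others, cell type markers aside, are said to be named after their values were seen. For each tested gene, the 2 nearest profiles are named, except that 1 gene is not reported here.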

Additional observations from a re-analysis of the deposited data

How the results depend on the processing

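No alternative called any of the 8 tested thermogenic genes or any companion list gene after adjustment. Over all genes the adjusted count was 0 in edgeR on all 6 libraries (973 at an unadjusted p under 0.05), 40 in DESeq2, and 0 to 5 with each library left out, the 5 without control 2. The unadjusted count was 403 to 1681 with each library left out (403 without resveratrol 3, 556 without resveratrol 1, 1681 without control 3). Among the thermogenic genes 0 to 1 had an unadjusted p under 0.05 with a library left out: CKB without control 1, GATM without control 2 and GATM without resveratrol 2. Among the 76 companion rows the 9 became 5 in limma with each of the 3 pseudocounts, and 1 to 15 with a library left out (1 without resveratrol 3, 4 without resveratrol 2, 15 without control 3). The cause was not tested. The sign turned for CKB without control 3 (0.03, with -0.91 to 0.03 over the libraries left out) and for SLC6A8 without control 1 (0.20, with -0.51 to 0.20), and in no other alternative for a tested thermogenic gene. Every companion gene named with a fold change kept its sign with each library left out. Same-numbered libraries of both diets deviated together with correlations of 0.157, 0.0741 and 0.200 over rows. Differently numbered libraries gave -0.154 to 0.0121, so the same-numbered pairs had the highest values. The deviations were taken from the mean of each diet, so high values in some pairs force lower ones in the others. The sample titles state no pairing, and the main fit used none. What the same-numbered libraries share was not tested. A fit with the replicate block called 0 genes after adjustment and 1259 at an unadjusted p under 0.05, and every tested thermogenic gene kept its sign. Depth limits TMEM26, DIO2, PRDM16 and ATP2A1, which had at most 105, 81, 45 and 6 reads in a library.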

Other observations

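Some sparse genes of heat production, named after their values were seen, lay below the filter and were not tested. ADRB3, the beta-3 adrenergic receptor through which cold activates brown fat in mice, had 7, 7 and 4 reads in resveratrol 1, 2 and 3, against 1, 1 and 2 reads in control 1, 2 and 3. TNFRSF9, a surface marker of beige cells in mice, had 16, 4 and 10 reads in resveratrol 1, 2 and 3, against 3, 1 and 2 reads in control 1, 2 and 3. TBX1, another such marker, rests on 11 to 33 reads in resveratrol and 17 to 81 reads in control and measured 0.365, 0.366 and 0.138 TPM in resveratrol 1, 2 and 3, against 1.13, 0.466 and 0.537 TPM in control 1, 2 and 3. LHX8, a transcription factor listed as a brown fat marker, had 2, 2 and 0 reads in resveratrol 1, 2 and 3, against 23, 1 and 4 reads in control 1, 2 and 3. None of these genes overlapped between the diets in TPM, but they were picked with their values known. ALPL, given above, did not overlap either. The gap was narrow in some. LHX8 had 1 read in control 2 (0.0445 TPM) and 2 reads in resveratrol 2 (0.0361 TPM), so its read counts did overlap. TNFRSF9 had 4 reads in resveratrol 2 (0.121 TPM) and 3 reads in control 1 (0.109 TPM). Other sparse list genes, such as KCNK3 and PPARGC1A, did overlap. The share of rows without overlap was 12.3% among those that passed the filter. It was not computed for rows below the filter, so it gives no measure for these genes.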
